A study of Mus musculus with 32 samples.

Results

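The mouse genome carries several genes for the arginine tRNA with the anticodon TCT, the isoacceptor that reads AGA codons, and these data hold 5 of them: tRNA-Arg-TCT-1-1, tRNA-Arg-TCT-2-1, tRNA-Arg-TCT-3-1, tRNA-Arg-TCT-4-1 and tRNA-Arg-TCT-5-1. They were taken as every locus whose name starts with tRNA-Arg-TCT-, 5 of the 401 tRNA loci that were quantified. No measured value was used to choose them. Chromatin accessibility was measured by ATAC-seq, in which a transposase cuts open chromatin, in brain and in liver of male C57BL/6N mice aged 10 weeks. Wild-type mice were compared with mice homozygous for a deletion of 1 of 3 phenylalanine tRNA genes, called Phe11, Phe21 and Phe31 (tRNA-Phe-GAA-1-1, 2-1 and 3-1), and no allele other than these deletions was named for any group. The study describes its wild-type and knockout mice as matched for age and litter, and also says that its experiments drew on different litters. The 32 libraries comprised 5 wild-type, 4 Phe11, 3 Phe21 and 3 Phe31 brains, and 7 wild-type, 4 Phe11, 3 Phe21 and 3 Phe31 livers. Each library came from nuclei of fresh tissue with mixed cell types, so more open nuclei and more opening per nucleus cannot be told apart.

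tRNA genes are transcribed by RNA polymerase III from promoter elements that lie inside the gene, and an active tRNA gene usually sits in open chromatin. Identical or nearly identical tRNAs are encoded at several loci, and the loci of an isoacceptor can differ in activity between tissues. Arg-TCT-4-1 is the gene known as n-Tr20, whose tRNA is found mainly in the central nervous system. The C57BL/6J strain carries a mutation in this tRNA that impairs its maturation, and when the ribosome rescue factor GTPBP2 is lost as well, ribosomes stall at AGA codons and neurons die. The other copies are known to be expressed more widely.

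In the RefSeq annotation of GRCm38.p6, the genome build of the files, 5 Arg-TCT genes were listed. Gene nomenclature, and not the files, gives n-Tr20 as n-TRtct5, a gene of 74 bases at chr1:173390329-173390402, inside the annotated span of Aim2 and with no other tRNA gene within 10000 bases. The other 4 genes were 85 to 87 bases long. They were n-TRtct2 at chr3:122292948-122293032, n-TRtct4 at chr11:69123482-69123568 inside the span of Hes7, n-TRtct3 at chr13:21917162-21917247 and n-TRtct1 at chr19:12011588-12011673. The last 3 had 4, 7 and 7 other tRNA genes within 10000 bases, and n-TRtct2 had none. Which of these 4 genes is which of the copies 1-1, 2-1, 3-1 and 5-1 was not given in the sources used here. Only Arg-TCT-4-1 is therefore placed in the genome below.

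Each value counts the reads over a tRNA gene and the 50 bases on either side. Library depth, as the sum of reads over the 401 loci, ran from 20315 to 35565 in brain (median 26173) and from 4719 to 23754 in liver (median 9329), so liver values rest on fewer reads. The targeted locus fell to between 4.82% and 34.0% of the wild-type mean in the 3 knockout brains and to 14.4% and 6.83% in Phe11 and Phe21 livers. In the 3 liver libraries labelled Phe31, tRNA-Phe-GAA-3-1 stood at 75.4% of wild type with overlapping groups, and tRNA-Phe-GAA-1-1 stood at 9.95%. These libraries go against their label and are written here as labelled Phe31. The columns of these libraries and of the 3 wild-type livers beside them carried numbers that differ from those of the samples in their labels, so they are taken by group only and called a, b and c. The wild-type pairs livers 1 and 22, livers 3 and 24, and brains 3 and 18 differed by less than the sampling noise. In each pair 1 library is of batch 1 and 1 of batch 2, so wild-type values of these batches may not be independent. Each pair was counted as 1 sample in every mean ± SD, while the tests take every library unless averaged pairs are named. The batch of a library is the one its label gives. In the promoters of marker genes, all 9 liver markers lay in a peak of each liver list and 1 of 9 (F2) in each brain list. Of the 5 brain markers with a promoter entry, 4 lay in a peak of each brain list and 1 or 2 in the liver lists. Of the 3 blood markers, Ptprc and Cd79a lay in a peak of every liver list and none lay in a peak of a brain list.

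Wild-type brain and liver were compared first, to ask how the openness of each Arg-TCT copy differed between the tissues. Arg-TCT-4-1 had the highest signal of the copies in brain and was among the lowest in liver, a difference of about 10-fold between the tissues. Arg-TCT-1-1 went the other way and was more open in liver, and Arg-TCT-2-1 and 3-1 did not pass the test. Values are given as reads per 10000 reads of the same library, which sets the difference in depth aside.

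In the 5 wild-type brains, numbered 1, 2, 3, 16 and 18, Arg-TCT-4-1 took 186, 247, 136, 205 and 198 reads, or 78.0, 92.5, 66.9, 84.2 and 88.6 per 10000. In wild-type livers 1, 3, 22 and 24 it took 9, 7, 4 and 6 reads, or 9.69, 8.87, 6.47 and 6.16 per 10000. The lowest brain was far above the highest liver. The mean was 83.1 ± 6.95 (SD, n = 4) in brain and 7.80 ± 0.40 (SD, n = 2) in liver. On the log2 scale with 1 added, brain exceeded liver by 3.24 (SE 0.15, 95% interval 2.92 to 3.56, adjusted p = 4.68e-11, limma with batch as a term). The exact permutation test of 5 brains against 4 livers gave p = 0.00794, the smallest possible. With the close pairs averaged, 4 samples against 2 allow no p under 0.0667 in an exact permutation test. Within batch 1 alone the difference was 2.95 (adjusted p = 3.82e-08, limma) and within batch 2 alone 3.58 (adjusted p = 3.86e-06, limma). These 2 values may not be independent, since the close pairs are split between the batches. By the pooled reads, brain stood at 1053% of liver, with a 95% interval of 714% to 1620% for counting error only. That interval takes the reads of the close pairs as independent and may be too narrow.

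Tissue differences were common among tRNA loci. Of the 258 loci tested, 187 passed the threshold of an adjusted p of 0.05, a background of 72.5%, with 42.2% higher and 30.2% lower in brain. That 2 of the 4 Arg-TCT loci tested passed is therefore no finding about the copies. The median difference of these 4 was -0.11 on the log2 scale, beside 0.17 over all 258 loci. The size of the Arg-TCT-4-1 difference ranked 4th of 258. The 3 loci above it were tRNA-Ile-TAT-2-1 (3.81, SE 0.29, adjusted p = 1.46e-08), tRNA-Ala-TGC-6-1 (3.45, SE 0.34, adjusted p = 2.67e-07) and tRNA-Ala-CGC-1-1 (3.36, SE 0.28, adjusted p = 3.13e-08), in the same limma fit. They took 20, 4 and 13 reads over the 4 livers, beside 26 for Arg-TCT-4-1, so this order rests on few liver reads. The largest difference towards liver was that of tRNA-His-GTG-2-4 (-3.05, SE 0.22, adjusted p = 7.38e-09, limma).

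**Figure D1:**
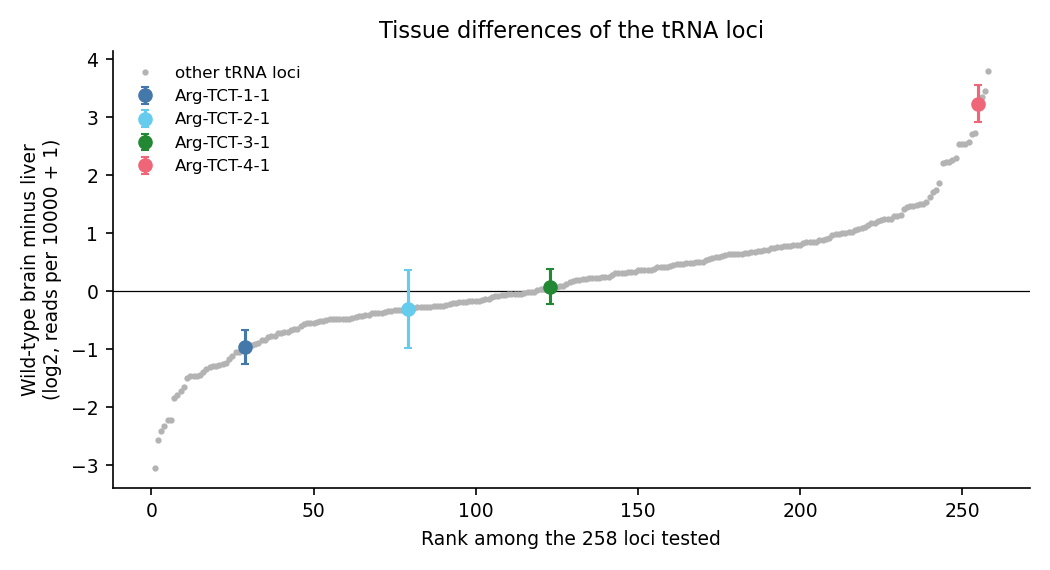
Each point is 1 of the 258 tRNA loci tested, ranked from lowest to highest by the wild-type brain minus liver difference (y axis, log2 of reads per 10000 with 1 added). Bars are 95% intervals from limma; Arg-TCT-4-1 lies at 3.24 near the upper end, Arg-TCT-2-1 and 3-1 lie near 0 and Arg-TCT-1-1 lies at -0.96.

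Arg-TCT-1-1 stood at 17.6, 19.5, 17.2, 20.1 and 18.8 per 10000 in wild-type brains 1, 2, 3, 16 and 18. In livers 1, 3, 22 and 24 it stood at 38.8, 32.9, 45.3 and 33.9. Every liver lay above every brain, and the difference was -0.96 on the log2 scale (SE 0.14, adjusted p = 1.71e-05, limma). It was -0.94 within batch 1 and -0.97 within batch 2, between which the close pairs are split. Loci whose tissues do not overlap made up 61.6% of those tested.

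Arg-TCT-3-1 was level between the tissues within its error. Its brain values were 34.0, 34.8, 30.0, 31.2 and 34.9 per 10000 and its liver values 40.9, 25.3, 29.1 and 30.8, in the same orders. The brain range lay inside the liver range, and the difference was 0.08 on the log2 scale with a 95% interval of -0.22 to 0.38 (adjusted p = 0.633, limma).

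Arg-TCT-2-1 varied more between livers than between brains. It stood at 12.99, 12.7, 6.40, 14.4 and 11.6 per 10000 in the brains and at 9.69, 22.8, 8.08 and 22.6 in the livers. Livers 3 and 24, which could not be told apart by sampling noise, were both high, and livers 1 and 22, likewise close to each other, were both low. The difference of -0.31 had a 95% interval of -0.97 to 0.36 (adjusted p = 0.385, limma).

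Arg-TCT-5-1 had the lowest signal of the copies in brain, with 2 to 9 reads per wild-type brain. It stood at 3.77, 1.50, 2.46, 2.87 and 0.895 per 10000 in brains 1, 2, 3, 16 and 18, and at 7.54, 7.60, 6.47 and 9.24 in the livers. The groups did not overlap, as for 18.9% of the loci under the filter on low values, where this locus falls. The difference was -1.46 on the log2 scale (exact permutation test, two-sided, unadjusted p = 0.00794, the smallest that 5 against 4 allows). With the close pairs averaged the p was 0.0667 (exact permutation test), the smallest p that 4 samples against 2 allow. Over all 7 wild-type livers the tissues overlapped, as liver a stood at 2.52, below brain 1 at 3.77. Across its 22 alternatives the difference ran from -1.84 to -0.53.

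The counted windows were close in length, 174 bases for Arg-TCT-4-1 and 185 to 187 bases for the other genes, so the levels of the copies are set beside each other. Whether reads map equally well to each copy was not tested. The order and shares of the copies are therefore those of reads, and may not be those of openness. Per 100 bases of window, wild-type brain levels were 47.8 ± 3.99 per 10000 for Arg-TCT-4-1, 17.8 ± 0.86 for 3-1, 10.1 ± 0.64 for 1-1, 6.60 ± 1.23 for 2-1 and 1.32 ± 0.57 for 5-1 (SD, n = 4). These 5 levels were separated by more than their spreads. In liver the order per 100 bases was 1-1 (20.3 ± 3.27), 3-1 (17.0 ± 2.64), 2-1 (8.49 ± 5.25), 4-1 (4.48 ± 0.23) and 5-1 (4.15 ± 0.54) (SD, n = 2), and neighbours in that order were within their spreads of each other, apart from 3-1 against 2-1. Among all 401 loci, Arg-TCT-4-1 ranked 24th in brain and 219th in liver by mean reads per 10000. Arg-TCT-3-1 ranked 111th and 120th, and Arg-TCT-1-1 ranked 182nd and 98th.

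The ratio of Arg-TCT-4-1 to each other copy within a library, taken on reads with 0.5 added, needs no scaling between libraries. Against Arg-TCT-3-1, the log2 read ratio ran from 1.15 to 1.43 in the 5 brains and from -2.23 to -1.45 in the 4 livers. Against Arg-TCT-1-1 it ran from 1.94 to 2.24 in brain and from -2.66 to -1.82 in liver. Against Arg-TCT-2-1 it ran from 2.53 to 3.34 and from -1.79 to 0, and against Arg-TCT-5-1 from 4.30 to 6.31 and from -0.55 to 0.34. The 4 ratios share their numerator. For each of them no brain overlapped any liver, as for 57.3% of the ratios between all pairs of the 258 loci (exact permutation test, two-sided, p = 0.00794 each, 0.00794 after Benjamini-Hochberg adjustment over the 4, with 5 brains and 4 livers). With the close pairs averaged to 4 brains and 2 livers each p was 0.0667 (exact permutation test), the smallest possible. With all 7 wild-type livers each was 0.00126 (exact permutation test).

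Arg-TCT-4-1 supplied more of the Arg-TCT signal in brain than all other copies together. It took between 51.8% and 58.4% of the Arg-TCT reads in the 15 brain libraries and was the highest copy in 15 of 15. The mean share was 55.4% ± 1.72 (SD, n = 4) in wild-type brain, and the pooled share was 55.6% (95% exact Clopper-Pearson interval 53.3 to 58.0%). In the 17 liver libraries its share lay between 0.541% and 12.1%. It alone was the lowest copy in 11 of them and Arg-TCT-5-1 alone in 5, and the 2 tied at 4 reads in wild-type liver 22. The pooled share over the 7 wild-type livers was 6.09% (Clopper-Pearson interval 4.30 to 8.33%). The highest copy in liver was 1-1 in 11 libraries and 3-1 in 6.

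**Figure D2:**
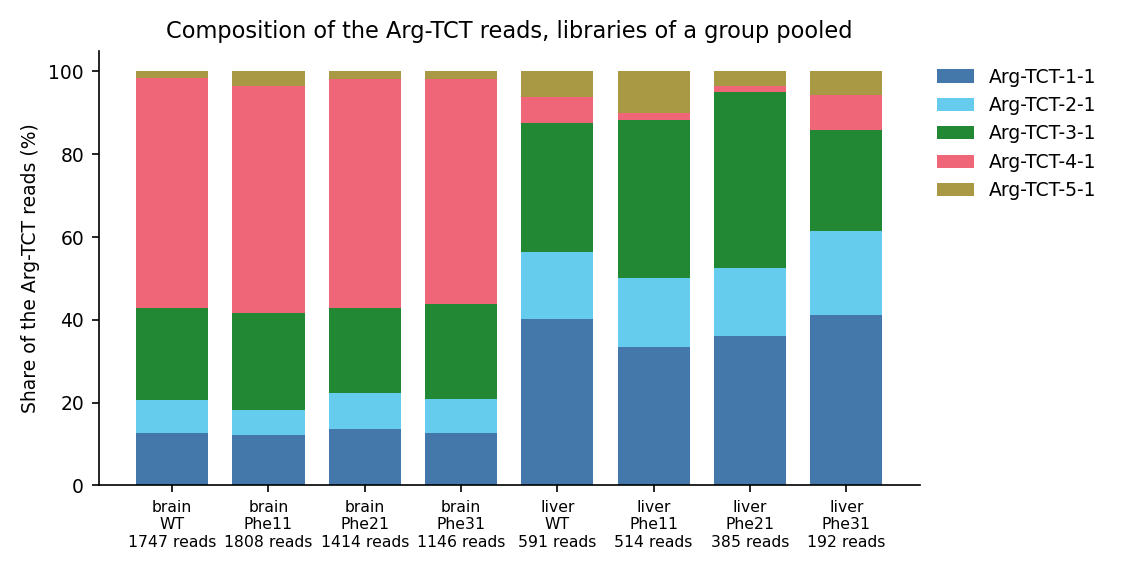
Bars give the share of the Arg-TCT reads (percent) taken by each of the 5 loci in each tissue and genotype, with the libraries of a group pooled and the number of reads below. Arg-TCT-4-1 takes 54.4 to 55.6% in the 4 brain groups and 1.30 to 8.33% in the 4 liver groups.

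The 5 copies together stood higher in brain than in liver, and the other 4 without Arg-TCT-4-1 stood lower. Their sum was 149.8 ± 9.42 per 10000 (SD, n = 4) in wild-type brain and 100.5 ± 0.62 (SD, n = 2) in livers 1, 3, 22 and 24. Without Arg-TCT-4-1 the sums were 66.7 ± 3.65 and 92.8 ± 0.23.

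The 3 wild-type livers a, b and c, which belong to a separate batch, gave lower values of the lowest copies. Arg-TCT-4-1 took 4, 2 and 4 reads there, or 5.04, 2.33 and 4.29 per 10000, each below the lowest of livers 1, 3, 22 and 24. Loci whose values did not overlap between these sets made up 25.5% of 377 loci, and 15.1% lay lower in batch 3, so such a shift was not particular to these copies. The difference between these sets of wild-type livers was -0.87 on the log2 scale for Arg-TCT-4-1 and -0.78 for Arg-TCT-5-1 (exact permutation test, two-sided, p = 0.0286 for both, the smallest for 3 against 4). With the close pairs averaged, 3 against 2, p was 0.1 for Arg-TCT-4-1, the smallest possible, and 0.2 for 5-1 (exact permutation test), a design in which no p under 0.1 is possible. The differences were then -0.89 and -0.79. Each knockout liver comparison below uses the wild-type livers of its own table, so the sets are not mixed there. The values of Arg-TCT-1-1, 2-1 and 3-1 overlapped between the sets.

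**Figure D3:**
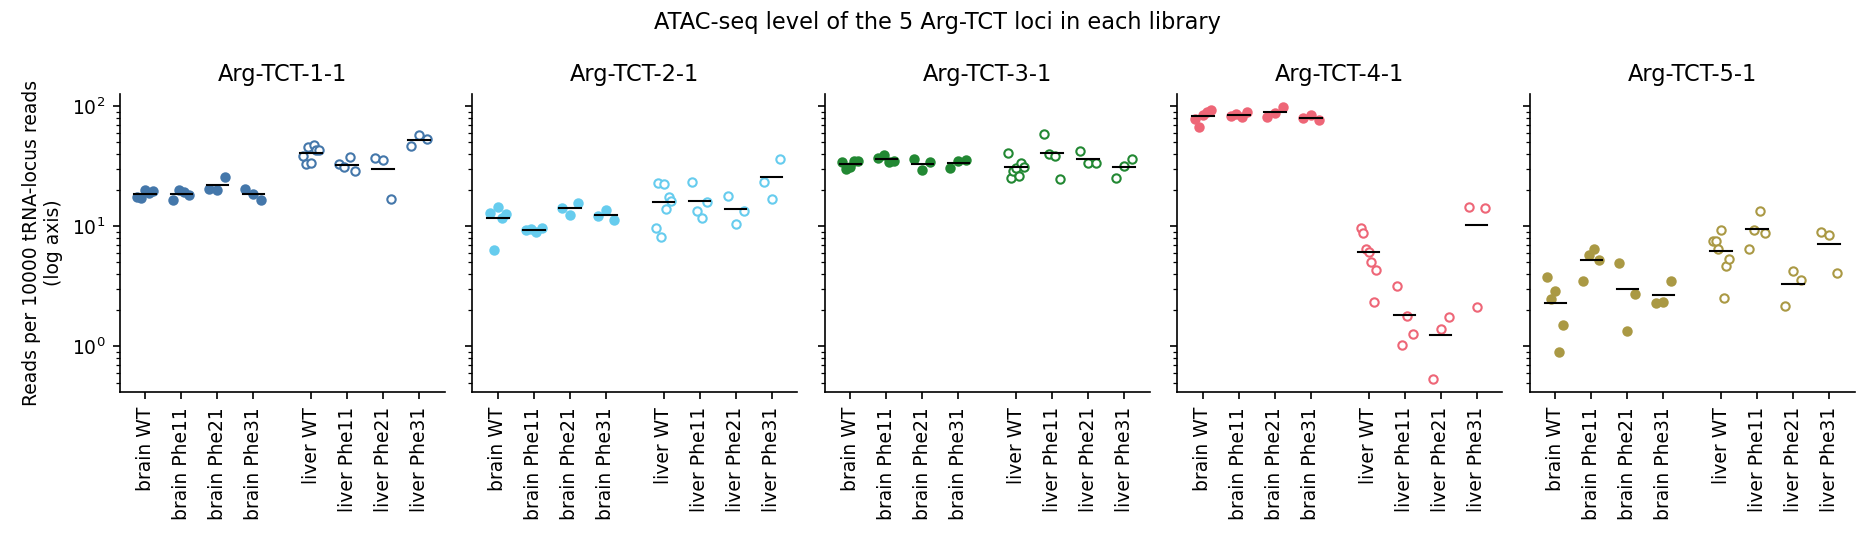
Each point is 1 library, and each panel is 1 Arg-TCT locus. The y axis is reads per 10000 tRNA-locus reads on a log axis, filled points are brain, open points are liver (Phe31 as labelled), and lines are means of all libraries. Arg-TCT-4-1 lies between 66.9 and 98.1 in every brain library and between 0.538 and 14.3 in every liver library.

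Peak calls bore on the position of Arg-TCT-4-1. The study called consensus peaks for each comparison and tissue, giving 3 brain and 3 liver lists. The n-TRtct5 gene lay in a peak of all 3 brain lists: chr1:173389090-173390576 in the Phe11 list, chr1:173389095-173390557 in the Phe21 list and chr1:173389095-173390569 in the Phe31 list. These peaks spanned 1463 to 1487 bases and reached mostly to lower coordinates than the gene. In the liver lists no peak overlapped the gene, and the nearest lay 8253 to 8318 bases away. Of 403 nuclear tRNA genes in the annotation, 21 (5.21%) lay in a peak of every brain list and of no liver list, 226 lay in a peak of every brain list, 176 in one of every liver list, and 0 lay in a peak of every liver list and of no brain list. The brain lists held more peaks, 215211 to 269579, than the liver lists, with 101338 to 125852. Of the other Arg-TCT genes, n-TRtct1 and n-TRtct4 lay in a peak of all 6 lists, n-TRtct3 in the Phe11 liver list alone, and n-TRtct2 in none.

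**Figure D4:**
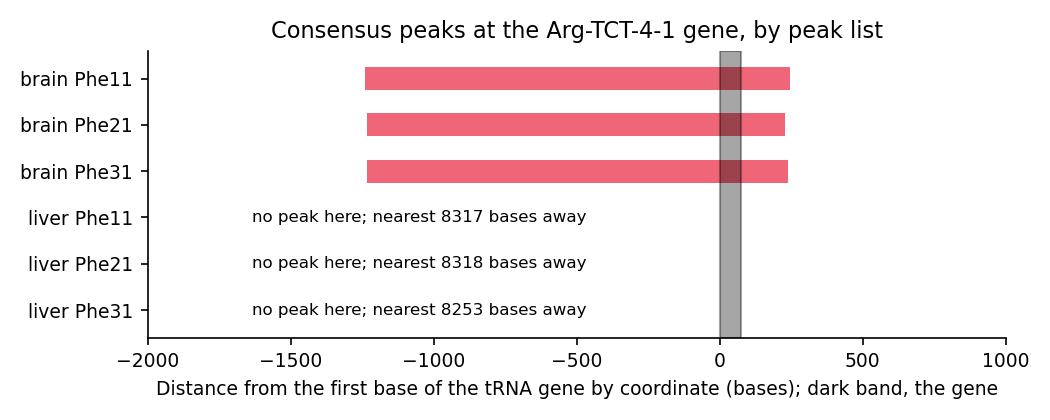
Horizontal bars are consensus peaks, one row per peak list, against the distance in bases from the first base of the n-TRtct5 gene by coordinate, with the gene as a dark band. A peak covers the gene in the 3 brain lists, and none lies in the plotted window in the 3 liver lists.

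The knockouts were then compared with wild type in brain, to ask whether the Arg-TCT copies changed when a phenylalanine tRNA gene was deleted. No Arg-TCT copy passed the threshold of an adjusted p of 0.05 in any of the 3 knockout brains by limma. The mean normalised read count of Arg-TCT-4-1 was 213 ± 10.1 (SD, n = 4) in Phe11 against 208 ± 10.5 (n = 3) in wild type, 235 ± 22.5 against 203 ± 32.7 in Phe21 and 196 ± 6.93 against 194 ± 31.3 in Phe31 (n = 3 each). Values are normalised read counts, scaled by the authors within each comparison. The 3 comparisons share wild-type brains 1 and 3, and those of Phe21 and Phe31 also share brain 2.

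In the Phe11 comparison Arg-TCT-4-1 counted 206, 218, 203 and 225 in the knockout brains against 203, 174, 220 and 229 in wild-type brains 1, 3, 16 and 18. The knockout values lay inside the wild-type range, and the difference was 0.05 on the log2 scale (95% interval -0.09 to 0.19, adjusted p = 0.599, limma). Batch 1 alone gave 0.17 and batch 2 alone -0.07. The background in this comparison was 28.1% of 263 loci called.

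In the Phe21 comparison Arg-TCT-4-1 counted 212, 237 and 257 in the knockout brains against 199, 172 and 237 in wild type. The knockouts were on the high side and overlapped wild type, with a difference of 0.22 (95% interval -0.01 to 0.45, adjusted p = 0.305, limma). No locus was called here, 0 of 253 by limma, edgeR or DESeq2, a background of 0%. The unadjusted limma p of Arg-TCT-4-1 was 0.0579. Arg-TCT-1-1 counted 53.2, 53.4 and 67.5 against 44.9, 44.3 and 49.9, and Arg-TCT-2-1 counted 36.7, 33.5 and 40.9 against 33.1, 16.5 and 32.7. Neither of these overlapped wild type, as for 24.1% of the loci that passed the filter, and neither passed the test (adjusted p = 0.305 and 0.377, limma).

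In the Phe31 comparison Arg-TCT-4-1 counted 196, 203 and 189 against 191, 164 and 227. The knockout values lay within the wild-type range, and the difference was 0.03 (95% interval -0.19 to 0.25, adjusted p = 0.986, limma), where 0.775% of 258 loci were called.

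Arg-TCT-3-1 differed by 0.11, 0.05 and 0.03 on the log2 scale in Phe11, Phe21 and Phe31 brains, with adjusted p of 0.376, 0.834 and 0.986 (limma). Arg-TCT-1-1 and 2-1 differed by -0.04 and -0.25 in Phe11 brain and by 0.03 and 0.26 in Phe31 brain, and none passed the test. Wild-type brain 3 was the lowest library for Arg-TCT-2-1, and without it the Phe11 difference was -0.50 (adjusted p = 0.0479, limma).

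Arg-TCT-5-1 was too low for the filter in brain. In Phe11 brains it counted 8.75, 14.8, 16.3 and 13.2 against 9.82, 6.39, 7.52 and 2.32 in wild type. The groups overlapped by 1 library on each side, and the difference was 1.01 on the log2 scale (exact permutation test, two-sided, p = 0.0571). Among the low loci, 5.17% had groups that did not overlap. With no filter, the adjusted p of this locus was 0.0528 by limma, 0.0202 by edgeR and 0.214 by DESeq2, in fits that called 16.6%, 19.8% and 8.18% of 379 loci. Without wild-type brain 1 the groups did not overlap (exact permutation test, p = 0.0286, the smallest possible). The difference was 0.47 in batch 1 and 1.56 in batch 2. In the Phe21 and Phe31 brains its groups overlapped, with differences of 0.15 and 0.11.

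In liver, Arg-TCT-4-1 lay below every wild-type library of the same table in all Phe11 and Phe21 libraries, and its groups overlapped in the comparison labelled Phe31. The Phe11 difference passed an exact test, and the Phe21 design was too small to pass one. Arg-TCT-1-1, 2-1 and 3-1 did not pass the test in any liver comparison, where 12.1%, 13.4% and 10.7% of the loci tested were called. All Arg-TCT-4-1 values in liver rested on 1 to 9 reads per library, below the filter on low values, so they were tested by exact permutation without adjustment over loci. Per 10000 reads, Phe11 liver 4 at 3.20 lay above wild-type liver b of batch 3 at 2.33, so the Phe11 livers overlapped the full set of 7 wild-type livers. The Phe11 and Phe21 comparisons share wild-type livers 1, 3 and 24.

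In the Phe11 comparison the knockout livers counted 3.07, 1.04, 1.77 and 1.24, from 3, 1, 2 and 3 reads. Wild-type livers 1, 3, 22 and 24 counted 9.86, 9.01, 6.44 and 6.17, from 9, 7, 4 and 6 reads. Every knockout lay below every wild type, as for 8.88% of the loci under the filter. The knockout mean was 22.6% of wild type, and the log2 difference was -1.70 (exact permutation test, two-sided, p = 0.0286, the smallest for 4 against 4). By pooled reads, 9 of 54025 against 26 of 33107, the level was 21.2% of wild type with a counting interval of 8.75% to 46.7%. With no filter, limma gave the same difference with an adjusted p of 0.0106, edgeR an adjusted p of 0.00192 and DESeq2 0.0507, in fits that called 7.45%, 7.71% and 3.19% of loci. Within batch 1 the difference was -1.86 and within batch 2 it was -1.55, each with 2 against 2 libraries. The wild-type livers of the 2 batches form the close pairs, so these values may not be independent. With the close pairs averaged, 4 knockouts against 2 wild types gave p = 0.0667 (exact permutation test), the smallest possible, so the call then ends.

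In the Phe21 comparison the knockout livers counted 0.602, 1.57 and 2.09, from 1, 2 and 2 reads, against 10.7, 9.80 and 6.84 in wild-type livers 1, 3 and 24. Again the groups did not overlap, as for 26.7% of the loci under the filter. The knockout mean was 15.6% of wild type (14.9% with livers 3 and 24 averaged) and the log2 difference was -2.10 (exact permutation test, two-sided, p = 0.1, the smallest that 3 against 3 allows). By pooled reads, 5 of 44098 against 22 of 26921, the level was 13.9% of wild type with a counting interval of 4.10% to 37.5%. With no filter the adjusted p was 0.00836 by limma, 0.00355 by edgeR and 0.0398 by DESeq2, in fits that called 11.4%, 13.5% and 4.77% of loci.

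In the comparison labelled Phe31, livers a, b and c of the labelled knockouts counted 9.01, 1.37 and 9.26, from 8, 1 and 7 reads, against 3.29, 1.56 and 2.83 in wild-type livers a, b and c. Libraries a and c were high and library b was the lowest of the 6, so the groups overlapped. The log2 difference was 0.84 (exact permutation test, two-sided, p = 0.4), and without labelled library b it was 1.54 (exact permutation test, p = 0.1). By pooled reads the level was 272% of wild type, with a counting interval of 116% to 670%.

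Depth moved with these values. The Phe11 and Phe21 livers held 9364 to 23754 reads per library and the libraries labelled Phe31 held 4719 to 5576, against 6186 to 9739 in the wild-type livers. Over all 17 livers, Pearson's r between the log2 level of Arg-TCT-4-1 and the log2 depth was -0.68, and over the 7 wild-type livers it was -0.09. These points share their depth and their genotype groups, and the part of depth in the liver result was not tested. Over the same 17 livers the other copies gave r of -0.60 (1-1), -0.28 (2-1), 0.12 (3-1) and -0.13 (5-1).

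Arg-TCT-5-1, also a low locus in liver, overlapped wild type in the Phe11 comparison. It counted 6.13, 9.36, 13.3 and 8.66 in Phe11 livers against 7.67, 7.72, 6.44 and 9.25 in wild type, a difference of 0.21 (exact permutation test, two-sided, p = 0.429). In the Phe21 comparison it counted 2.41, 4.71 and 4.19 against 8.35, 8.40 and 10.3, with no overlap, as for 26.7% of the loci under the filter, at 41.9% of wild type and a difference of -1.10 (exact permutation test, p = 0.1, the smallest possible). In the comparison labelled Phe31 it counted 5.63, 5.50 and 2.64 against 1.65, 3.13 and 3.54 and overlapped.

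**Figure D5:**
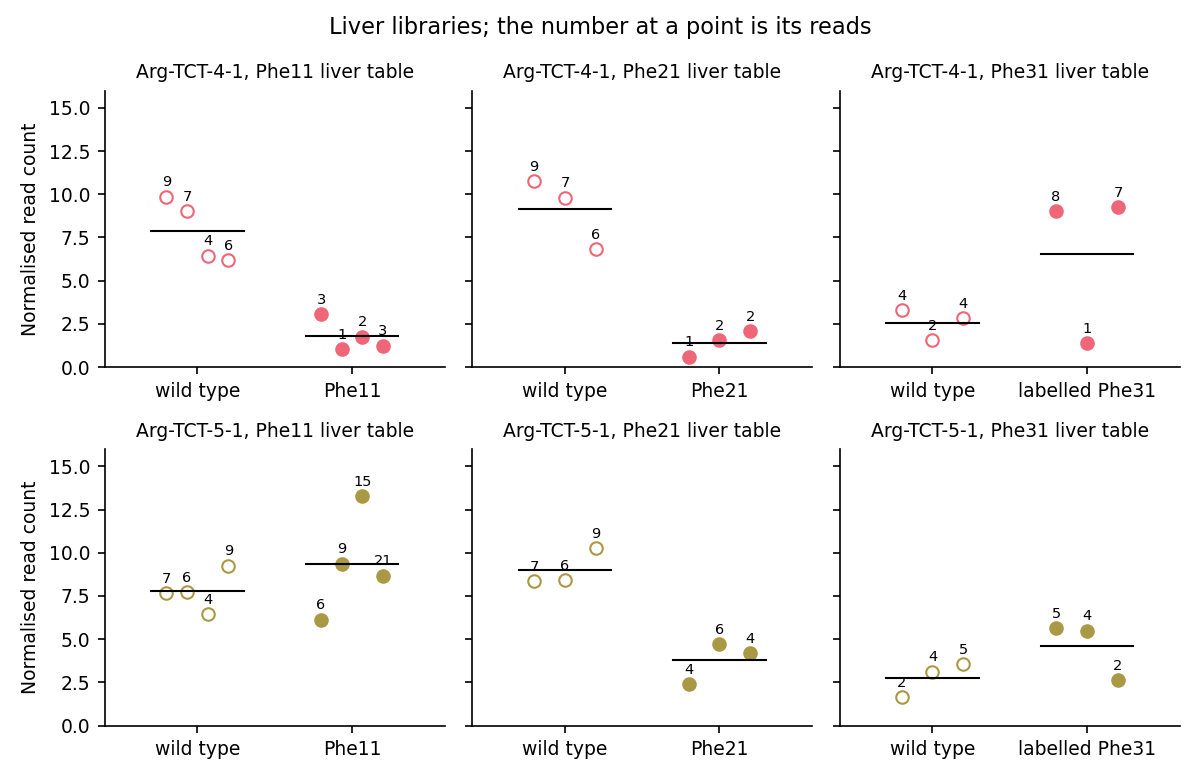
Normalised read counts of Arg-TCT-4-1 (upper row) and Arg-TCT-5-1 (lower row) in the 3 liver comparisons, with wild type as open points and knockouts as filled points; the number at a point is its reads and lines are means. Arg-TCT-4-1 lies at 0.602 to 3.07 in Phe11 and Phe21 livers and at 6.17 to 10.7 in their wild types.

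The tissue difference was next taken within each genotype, from 1 fit over all 32 libraries that includes all 7 wild-type livers and has no batch term. The Phe31 brains were all of batch 1 and the livers labelled Phe31 all of batch 3, so tissue and batch cannot be told apart in the values within Phe31. These brains and livers also differed in the phenylalanine locus they had lost, as given above, so the values within Phe31 are not those of 1 genotype by the data. Arg-TCT-4-1 was higher in brain than in liver by 3.63 on the log2 scale in wild type, 4.98 in Phe11, 5.37 in Phe21 and 3.17 with the libraries labelled Phe31, and it passed the test in each (adjusted p = 4.99e-14, 3.23e-15, 2.83e-14 and 1.04e-08, limma). The backgrounds were 70.2%, 56.6%, 50.8% and 53.9%. In this fit Arg-TCT-4-1 passed the filter through its brain values. Its means in Phe11 and Phe21 livers, 1.82 and 1.24 per 10000 on 1 to 3 reads per library, lay below the filter of 5. The limma p and intervals of Arg-TCT-4-1 for these knockouts therefore rest on liver values under the filter. The difference of the differences from wild type was 1.75 in Phe21 (95% interval 0.80 to 2.70, adjusted p = 0.0376, limma), where 2.33% of 258 loci were called. It was 1.35 in Phe11 (95% interval 0.48 to 2.22, adjusted p = 0.173) and -0.45 with the libraries labelled Phe31 (95% interval -1.40 to 0.50, adjusted p = 0.631). These were not past the threshold in limma, where 1.16% and 8.91% were called. Against wild-type brains of batch 1 and wild-type livers of batch 3, the batches of the Phe31 libraries, the Phe31 value was -0.90 (adjusted p = 0.353, limma). With the wild-type livers of batches 1 and 2 only, the Phe21 and Phe11 values were 2.12 and 1.72 (adjusted p = 0.00102 and 0.00488, limma). Of 25 alternatives for Phe21, 13 ended the call. Among them a pseudocount of 10 gave 0.62 (adjusted p = 0.146, limma) and averaging the close pairs gave 1.58 (adjusted p = 0.0561, limma), and leaving out single libraries, among them any of the 3 Phe21 brains, also ended the call, with values from 1.50 to 1.93 over all libraries left out in turn.

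Arg-TCT-1-1 was lower in brain within Phe11 (-0.78, adjusted p = 0.000264) and with the libraries labelled Phe31 (-1.45, adjusted p = 1.70e-07), and its difference within Phe21 was -0.35 (adjusted p = 0.141, limma). Without Phe21 liver 9, the lowest of these livers for this copy at 16.8 per 10000, this became -0.71 (adjusted p = 0.00165, limma). Arg-TCT-2-1 was lower in brain within Phe11 (-0.68, adjusted p = 0.0353) and with the libraries labelled Phe31 (-0.93, adjusted p = 0.0154, limma). Leaving out any Phe11 brain, Phe11 liver 4 or Phe11 liver 21 ended the first call, with -0.70 to -0.49, and leaving out labelled Phe31 liver c ended the second, with -0.65. Arg-TCT-5-1 was lower in brain in wild type (-1.13, adjusted p = 0.00181) and with the libraries labelled Phe31 (-1.09, adjusted p = 0.0336, limma), and the latter call ended in 4 of 7 alternatives, without Phe31 brain 10 (-1.02) or 11 (-1.03), with a pseudocount of 0.1 (-1.32) and with TMM scaling (-0.95). With a pseudocount of 10 it was -0.42 and kept the call. No copy other than 4-1 differed from wild type in its tissue difference in the limma fit.

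The other arginine loci, 19 with the anticodons ACG, CCG, CCT and TCG, were followed beside the Arg-TCT copies. Between wild-type brain and liver, 8 of the 17 tested were higher in brain, 7 were higher in liver and 2 did not pass, where 42.2% of all loci were higher and 30.2% lower in brain, with tRNA-Arg-TCG-3-1 (2.21, SE 0.30, adjusted p = 9.43e-06) and tRNA-Arg-ACG-3-2 (-1.85, SE 0.21, adjusted p = 1.12e-06) the furthest in each direction in limma. None of them reached the difference of Arg-TCT-4-1. In Phe11 brain 2 of 18 were higher and 5 were lower, where 14.8% of all loci were higher and 13.3% lower, among them tRNA-Arg-ACG-3-2 (0.58, adjusted p = 0.0163) and tRNA-Arg-CCT-4-1 (-0.47, adjusted p = 0.000351, limma). In Phe21 and Phe31 brains 0 of 18 passed in limma.

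In the livers, 2 of the 15 other arginine loci tested were lower in Phe11, the further being tRNA-Arg-TCG-1-1 (-0.44, adjusted p = 0.000472), and 1 was lower in Phe21, tRNA-Arg-ACG-2-1 (-0.53, adjusted p = 0.0014, limma). Over all loci 5.31% were higher and 6.76% lower in Phe11 liver, and 8.46% higher and 4.98% lower in Phe21 liver. With the libraries labelled Phe31, 1 was higher, tRNA-Arg-TCG-4-1 (0.98, adjusted p = 0.0446), and 5 were lower, tRNA-Arg-TCG-2-1 the furthest (-1.11, adjusted p = 0.0242, limma), where 1.69% of all loci were higher and 8.99% lower.

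Over all 32 libraries the 5 loci whose log2 levels followed Arg-TCT-4-1 most closely, of 257 compared, were tRNA-Ile-TAT-2-2, tRNA-His-GTG-2-8, tRNA-Ala-AGC-10-1, tRNA-Cys-GCA-4-29 and tRNA-Ala-CGC-1-1, with Pearson's r of 0.92 to 0.95. The points fall into a brain and a liver cluster and share depth, so these r mostly describe the tissues. Over the 15 brains alone the same loci gave r from -0.33 to 0.33, and over the 17 livers alone 0.37 to 0.68. Of the other Arg-TCT copies, 3-1 gave r = -0.05, 2-1 gave -0.36, 5-1 gave -0.52 and 1-1 gave -0.73 over all libraries.

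The levels of these loci in liver can be set beside that of Arg-TCT-4-1, which had means of 7.80 per 10000 in wild-type livers 1, 3, 22 and 24, 1.82 in Phe11 and 1.24 in Phe21. In the same order tRNA-Ile-TAT-2-2 stood at 10.3, 2.87 and 0.772, and tRNA-His-GTG-2-8 at 9.58, 6.16 and 2.13. tRNA-Ala-AGC-10-1 stood at 7.47, 2.52 and 1.54, and tRNA-Cys-GCA-4-29 at 2.75, 1.10 and 0.591. tRNA-Ala-CGC-1-1 stood at 3.70, 5.39 and 2.30. In Phe21 livers the mean of each of these loci was below the wild-type mean, and in Phe11 livers that of 4 of them was. These loci were named for their likeness to Arg-TCT-4-1 across these same libraries, and these values carry no test.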

How the data were processed

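ATAC-seq reads had been trimmed with Trim Galore 0.6.4, aligned with Bowtie2 2.4.1 to GRCm38 and, per the labels and the study's methods, kept to fragments of at most 175 bases. Reads over each tRNA gene with 50 bases on either side were counted with featureCounts 2.0.0 and normalised with DESeq2 1.30.0 by the authors. The deposited signal is these normalised counts, one table per knockout and tissue. In all 40 columns 100.0% of values were whole reads divided by 1 size factor (within 0.01), so reads were recovered and the 32 libraries were put on 1 scale as reads per 10000. The deposited peak lists were used by position, and the authors' tables of fold changes and p-values were not used.

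Knockouts were compared within their own table with limma 3.58.1 on log2(normalised count + 1), for loci with a mean of at least 10, with batch as a term for Phe11. Tissues were compared on log2(reads per 10000 + 1) at a mean of at least 5, with batch as a term between wild-type brain and liver and without one in the fit of all 32 libraries. Adjusted p are Benjamini-Hochberg values across every locus in the fit. Loci under the filter were given exact permutation tests. edgeR 4.0.16 and DESeq2 1.42.0 on the recovered reads, other pseudocounts, scalings and left-out libraries were alternatives, and the fits were tested on simulated data. Of 55 replicate pairs, 3 had chi-square values below sampling noise. The study describes its ATAC-seq samples as separate mice, with 5 controls for brain and 4 for liver, and 3 mice per knockout. The 3 close pairs were still counted as 1 sample each in means and SDs, and averaged in alternatives of the tests they enter, apart from the tissue difference within each genotype. As a check of pairing, the deviations of same-numbered brain and liver libraries from their group means correlated at -0.04, -0.003 and -0.01 in the wild-type and Phe11 pairs and at 0.10, 0.15 and 0.12 in the 3 Phe21 pairs. Libraries of different numbers were not correlated in this way, so these r do not settle which libraries pair. As an assumption, the numbers were taken to pair the Phe21 libraries only. Intervals of reads and shares cover counting error only. They take all reads as independent, so those that pool a close pair may be too narrow. The text names the 5 copies, the other arginine loci furthest in each direction among those past the threshold, the loci with a larger tissue difference than Arg-TCT-4-1, and the 5 loci most correlated with it. The members and lists were chosen with earlier results of these data known.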

Additional observations from a re-analysis of the deposited data

Results flagged for a closer look

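The tissue difference of Arg-TCT-4-1 differed between genotypes: brain exceeded liver by 1.75 more on the log2 scale in Phe21 than in wild type (adjusted p = 0.0376, limma, 3 Phe21 brains and 3 Phe21 livers against 5 wild-type brains and 7 wild-type livers). This call ended in 13 of 25 alternatives, and a pseudocount of 10 gave 0.62. It was 1 of 15 such differences examined over the 5 copies and 3 knockouts, and the only one past the threshold. Phe21 brains lay at 81.8 to 98.1 per 10000 and wild-type brains at 66.9 to 92.5, while all 3 Phe21 livers, at 0.538 to 1.77, lay below all 7 wild-type livers, at 2.33 to 9.69. The liver values come from 1 to 2 reads in each Phe21 library, and the Phe21 livers were the deeper ones, with 11278 to 18575 reads. Only through brain did the locus pass the filter of this fit, so its limma p rests on Phe21 liver values under the filter. The part of depth in this difference was not tested. In 40 checks of the copies' levels and shares in groups of 4 or 5 samples, 0 samples stood apart from their group.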

How the results depend on the processing

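The wild-type brain against liver difference of Arg-TCT-4-1 kept its direction and its call in all 22 alternatives. The alternatives of wild-type libraries alone gave 2.36 (pseudocount of 10) to 3.63 (all wild-type livers), and a replicate block on the 2 same-numbered wild-type pairs gave 2.83. The differences within Phe11, Phe21 and the libraries labelled Phe31 kept theirs in 11, 10 and 9 alternatives. They ran from 3.00 to 5.58 within Phe11, 3.14 to 6.20 within Phe21 and 2.23 to 3.56 with the libraries labelled Phe31. The planned replicate block took same-numbered libraries of all genotypes, 2 wild-type, 1 Phe11 and 3 Phe21 pairs, and its 4.53 (adjusted p = 7.18e-08, limma) is a mean over these genotypes and not a wild-type difference. For 5-1 it gave -0.55 with no filter, not past the threshold, and the wild-type pairs gave -1.08, also not past it. Within Phe21, where the numbers were taken to pair the libraries, the block left the difference of 4-1 at 5.37 and changed no call of the 4 copies it could test, which leaves out 5-1. The difference of tissue differences over the 3 Phe21 and 2 wild-type pairs was 2.54, past the threshold with the replicate block and without it. These blocks, apart from the planned one, were chosen after seeing the data. Blocks that hold wild-type or Phe11 pairs use numbers that were not taken to pair those libraries.

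In liver, Arg-TCT-4-1 in Phe11 was no longer past the threshold with batch 1 alone (-1.86), batch 2 alone (-1.55), DESeq2 with no filter (-2.16) and close pairs averaged (-1.73). The batch and pair alternatives cannot reach an exact p of 0.05. It lay between -1.91 and -1.57 as single libraries were left out, and between -2.17 and -0.60 over the other alternatives. In Phe21 it passed only with no filter, by limma (-2.10), edgeR (-2.62) and DESeq2 (-2.78). There it lay between -2.30 and -1.82 with single libraries left out, and between -2.78 and -0.74 over the other alternatives. The planned edgeR and DESeq2 fits with the filter gave no value for this locus in liver, nor for 5-1. In brain 4-1 changed sign in Phe11 with batch 2 alone (-0.073, or -0.019 to 0.10 with single libraries left out) and in Phe31 with edgeR (-0.012, or -0.087 to 0.14), never past the threshold.

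The difference of tissue differences from wild type, whose alternatives were chosen after seeing the data, was not past the threshold in Phe21 with a pseudocount of 10 (0.62) or close pairs averaged (1.58). It ran from 1.50 to 1.93 with single libraries left out, and leaving out wild-type brain 1, 3, 16 or 18, any Phe21 brain, wild-type liver 1 or 3, or Phe21 liver 7 or 8 ended the call. For Phe11 it gave 1.72, past the threshold, with the wild-type livers of batches 1 and 2 only. With single libraries left out it gave 1.21 to 1.56, passing without wild-type liver b (1.52), and with the other alternatives it gave 0.48 to 1.75. For the libraries labelled Phe31 it gave -1.22 to -0.068, passing without labelled liver b (-1.22), and -0.90 against wild-type libraries of the same batches. The mean share of 4-1 over wild-type livers 1, 3, 22 and 24, 7.74%, was 8.23% per base of window, 5.47% as a mean over all wild-type livers (6.09% by pooled reads) and 6.97 to 8.51% with single libraries left out, and in brain 54.7 to 56.1%.

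Other copies changed sign only where they had not passed. Arg-TCT-3-1 did so between tissues with edgeR (-0.054), DESeq2 (-0.023) and the replicate block on wild-type pairs (-0.013) and gave -0.074 in the block over all genotypes, 1-1 in Phe11 brain with batch 1 alone (0.025), 2-1 in Phe11 liver with edgeR (-0.065), DESeq2 (-0.052) and batch 2 alone (-0.018), 5-1 in Phe11 liver with batch 1 alone (-0.017), and 3-1 in the livers labelled Phe31 with DESeq2 (0.033). With single libraries left out, 3-1 ran from -0.054 to 0.23 between tissues, from -0.013 to 0.12 in Phe21 brain and from -0.034 to 0.090 in Phe31 brain. In brain, 1-1 ran from -0.10 to 0.0058 in Phe11 and from -0.047 to 0.099 in Phe31, 2-1 from -0.064 to 0.42 in Phe31, and 5-1 from -0.24 to 0.55 in Phe21 and from -0.18 to 0.39 in Phe31. In liver, 2-1 ran from -0.17 to 0.38 in Phe11, 1-1 from -0.45 to 0.067 in Phe21 and 3-1 from -0.14 to 0.14 in the libraries labelled Phe31. Between tissues, 3-1 ran from -0.30 to 0.10 within Phe11 and from -0.019 to 0.24 within the labelled Phe31, and within Phe21 2-1 ran from -0.12 to 0.23 and 5-1 from -0.51 to 0.16. The cause of these changes was not tested. Liver depth limits the values of the low copies, which rest on few reads per library.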
